A study of Mus musculus with 20 samples.

Results

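Motor neurons of a cranial type (NIP) were compared with motor neurons of a spinal type (NIL) after 12 h of 20 µM cyclopiazonic acid (CPA), with 2 libraries in each group. These 4 libraries, of 20 in the series, were chosen by line, agent and time as the sample titles give them. Both types were made from mouse embryonic stem cells, and the agent was added to cultures at day 2. In this field NIP stands for Neurog2, Isl1 and Phox2a expressed together, and NIL for Neurog2, Isl1 and Lhx3. The same lines kept for 12 h without CPA, again 2 libraries each, served as the level without the agent. The titles and the extraction text give the later times as 12 h and 36 h, whereas the treatment text and the series design give 6 h and 12 h. The titles were followed here. Whether replicates 1 and 2 came from separate cultures is not in the labels, so the p-values describe the spread between these libraries, which may be technical. In bulk RNA, fewer cells of a type and less RNA per cell cannot be told apart.

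CPA inhibits SERCA, the calcium pump of the endoplasmic reticulum (ER), and so empties its calcium store. Chaperones of the ER need that calcium, so unfolded protein accumulates and the unfolded protein response (UPR) starts. Its sensors are IRE1 (gene Ern1), ATF6 and PERK (gene Eif2ak3). IRE1 splices Xbp1 mRNA and, with ATF6, raises chaperones and the machinery that degrades misfolded protein. PERK slows translation and favours synthesis of ATF4, which raises genes of amino acid supply, the death-linked factor CHOP (gene Ddit3) and the phosphatase subunit GADD34 (gene Ppp1r15a), which restores translation. The question addressed is which line stood at the higher level of each arm under the agent.

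RNA was total RNA with ribosomal RNA depleted, counted per gene. The 4 CPA libraries held 14496014 to 22196190 gene reads, and Rn45s, the ribosomal precursor gene, took 7.38% to 13.8% of them. Levels are CPM, the reads of a gene scaled to a fixed number of gene reads per library (edgeR TMM scaling). Differences are log2 values of NIP minus NIL with a standard error, from edgeR's quasi-likelihood test, and adjusted p-values follow Benjamini and Hochberg over the 14792 genes tested with a threshold of 0.05. The replicate number linked libraries of different groups, and values from a fit with it as a block are given where they change a call.

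The line labels were checked first. Lhx3 had 0 counts in both CPA-treated NIP libraries, against 151 and 121 CPM in CPA-treated NIL libraries. With 5550 counts in NIL it was at least 2070-fold lower in NIP, taking 3 counts over both NIP libraries as the limit that 0 counts allow. Phox2a, on chromosome 7 at 101818313 to 101822726 of GRCm38, stood at 56.9 and 82.5 CPM in NIP, against 0.0839 and 0.311 CPM in NIL. Both genes separated the lines without overlap and as labelled. The counts cannot separate an inserted copy of these genes from the cell's own copy.

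Markers of other cell types were measured in the same libraries. Of 18 endoderm and endothelium markers tested, 18 had both NIP libraries below both NIL libraries. Their summed level was 778 and 4370 CPM in NIP with CPA, against 6570 and 20500 CPM in NIL with CPA. Of 24 proliferation markers, all 24 were below in NIP, with sums of 145 and 316 CPM, against 504 and 1190 CPM in NIL. In the test without the block 0 of 18 and 0 of 24 passed, and with it 16 and 24 were lower. Pluripotent stem cell markers summed to 134 and 229 CPM in NIP and 223 and 621 CPM in NIL, with 2 and 1 of 16 at 0 counts in NIP and 1 and 0 in NIL. Lin28a held the most counts of that sum (3998 in NIP, 5050 in NIL). Of 15 members tested 11 lay below and 0 above in NIP without overlap, with a median of -3.6. None passed without the block, and 13 were lower with it. Mesenchyme markers summed to 23.3 and 57.5 CPM in NIP and 110 and 248 CPM in NIL, with 5 and 4 of 14 at 0 counts in NIP and 1 and 2 in NIL. Of 11 members tested 9 lay below and 2 above in NIP without overlap, with a median of -3.2. Of these, 4 were lower and 0 higher (9 and 0 with the block). Each of the 4 (Col1a1, Col1a2, Col5a1 and Postn) missed the threshold in at least 1 fit with 1 CPA library left out. Over all genes 26.8% lay below and 33.3% above without overlap. Of all genes 3.39% were lower (12.5% with the block) and 6.77% higher (14.2% with the block). The sums of glial and neural crest markers (24.8 and 26.8 CPM in NIP, 12.9 and 21.4 CPM in NIL) and of other neurons (44.1 and 55.1 CPM in NIP, 42.4 and 50.1 CPM in NIL) were low in both lines. Pou4f1, a sensory neuron factor named after its values were seen, carried the sum of other neurons (1779 counts in NIP, 924 in NIL), while 3 of 12 tested members were lower in NIP and 0 higher: Gad1 (0 counts in NIP, 55 in NIL), Th (2 counts in NIP, 218 in NIL) and Lhx5 (8 counts in NIP, 145 in NIL). Th did not pass without NIP replicate 1, NIP replicate 2 or NIL replicate 1 (adjusted p up to 0.202, without NIL replicate 1). The glial genes Gfap and Sox10 had 0 counts in all 4. Mbp, named after its values were seen, carried the glial sum (870 counts in NIP, 374 in NIL). Of 7 tested members of the glial list 1 was higher in NIP and 0 lower (2 and 1 with the block). The member that passed was Aldh1l1 (169 counts in NIP, 46 in NIL, difference 1.69, adjusted p = 0.0152). It did not pass in every fit with 1 CPA library left out, where its difference ran from 1.40 to 1.93. Neural progenitor markers summed to 826 and 731 CPM in NIP and 499 and 551 CPM in NIL, a sum carried by Vim (28855 counts in NIP, 15384 in NIL), named after its values were seen. Of the 14 members 4 lay above and 8 below in NIP without overlap, with a median of -0.70, and 2 were higher and 1 lower (2 and 6 with the block). NIL replicate 2 held the most endoderm, proliferation, pluripotent and mesenchyme marker RNA of the 4. The part of these cells in the results below was not tested.

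**Figure D1:**
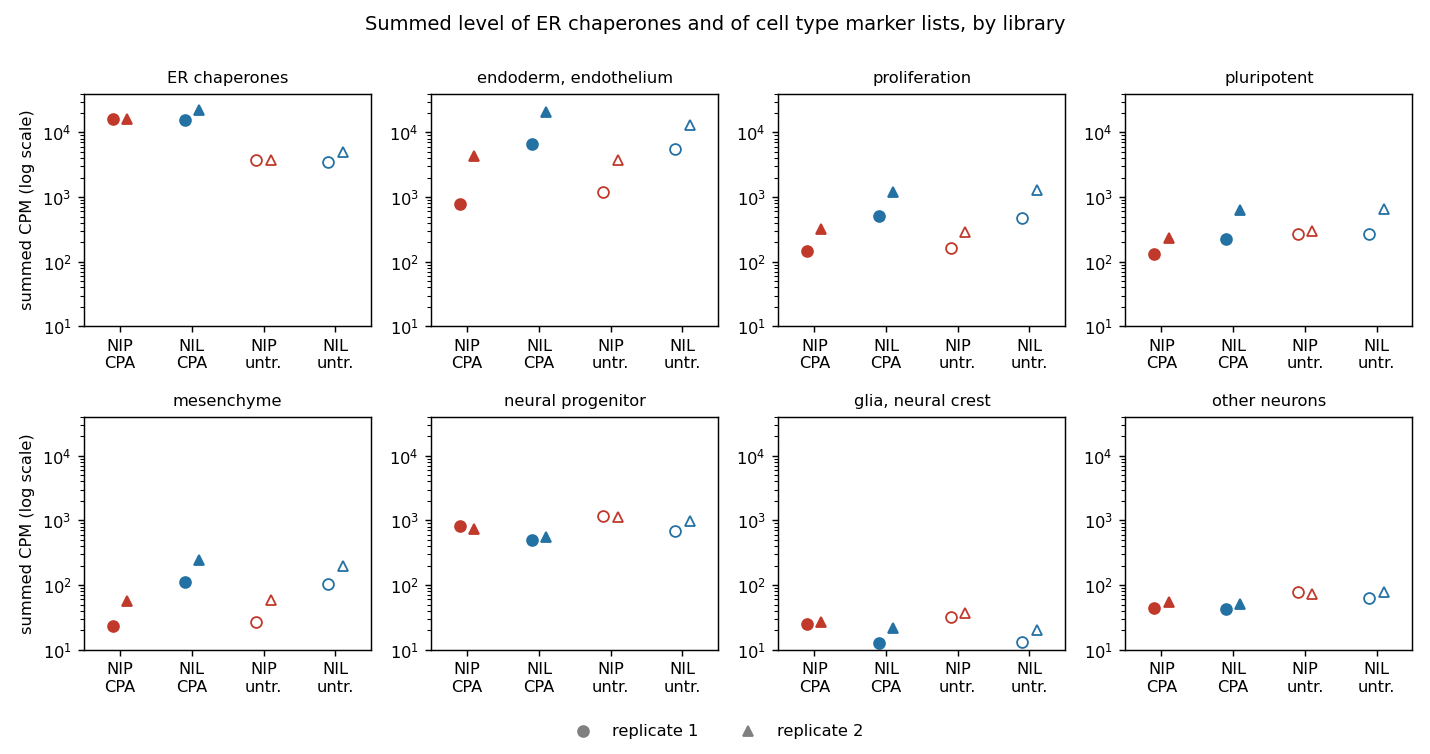
Summed CPM (log axis) of the ER chaperone list and of 7 cell type marker lists in each 12 h library, with NIP in red, NIL in blue, CPA filled, untreated open, circles for replicate 1 and triangles for replicate 2. The endoderm sum ran from 778 CPM in NIP replicate 1 to 20500 CPM in NIL replicate 2 with CPA, while the chaperone sum ran from 15800 to 22200 CPM.

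In all, 1504 genes differed between the lines with CPA, which is 10.2% of the genes tested. Of these 1002 (6.77%) were higher in NIP and 502 (3.39%) lower. With the block 3946 differed (26.7%), 2103 higher (14.2%) and 1843 lower (12.5%). Across all genes the 4 libraries did not overlap between lines at 60.1%, with NIP above at 33.3% and below at 26.8%. Without CPA 1769 genes (12%) differed between the lines at 12 h, 1136 higher (7.68%) and 633 lower (4.28%) in NIP. Of the genes that differed with CPA, 1106 also differed without it, 73.5% of the CPA calls and 62.5% of the untreated calls, and 1105 of these had the same direction. The log2 differences in both settings correlated across genes (r = 0.852, 14792 genes, which are not independent replicates), and the settings share no library. The other 398 genes passed with CPA and not without, 260 higher and 138 lower in NIP, and 385 of them had the same sign in both settings.

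Whether the line difference itself changed with CPA was tested as an interaction, and 0 of 14792 genes passed (0%), with and without the block. At an unadjusted p under 0.05 there were 349 of the 14792 genes. That is fewer than this threshold alone would give if no line difference had changed. DESeq2 called 8. A gene that passed in one setting and not in the other is therefore not shown to differ between settings here.

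**Figure D2:**
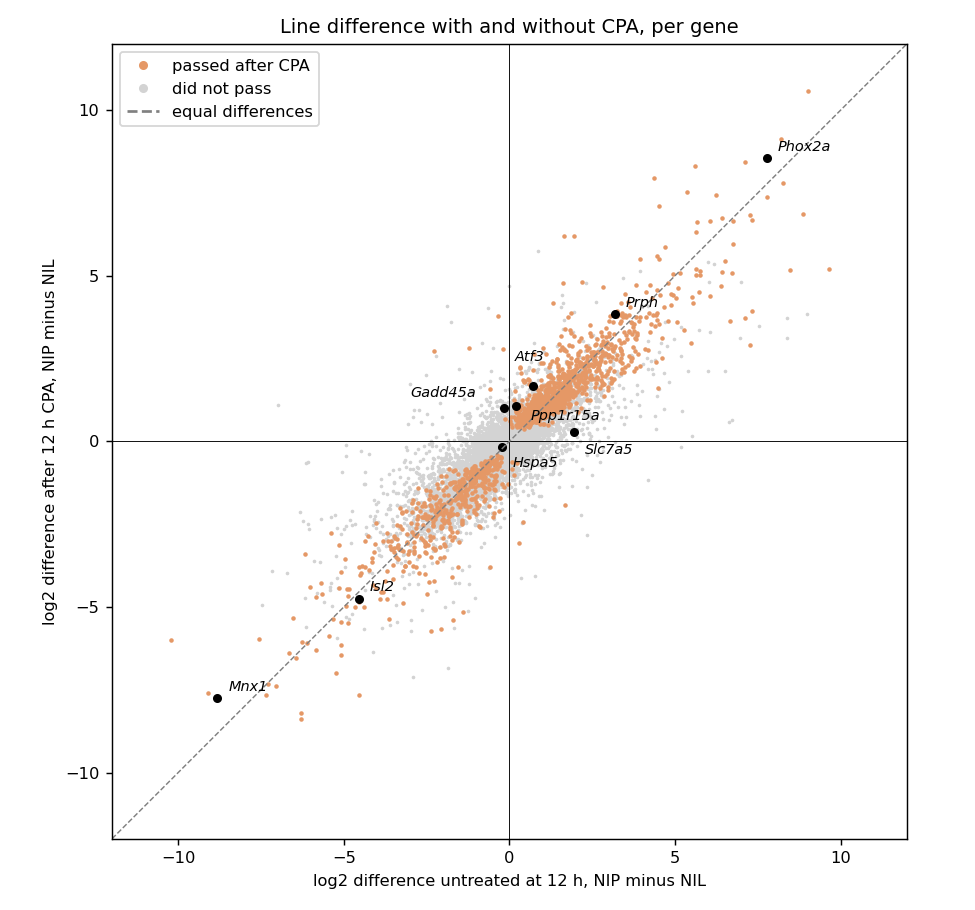
Each point is a gene, with its log2 difference NIP minus NIL untreated at 12 h on the horizontal axis and after 12 h CPA on the vertical axis, orange where it passed after CPA, and a dashed line where both are equal. Points follow the line (r = 0.852), with Phox2a and Prph at the upper right and Mnx1 and Isl2 at the lower left. Hspa5 is near the origin, and 2 genes beyond 12 log2 units are not drawn.

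Promoter sequences of 4 genes are shown as examples of both arms whose RNA levels are described below: Hspa5 and Creld2 for the chaperone arm, Atf3 and Asns for the ATF4 arm. They come from RefSeq on GRCm38.p6, 5′ to 3′ on the strand of the gene, and capitals mark a match to ERSE (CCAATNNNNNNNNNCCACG), the element bound by ATF6 and XBP1, or to CARE (TGATGNAAN), the element bound by ATF4, on either strand. The Hspa5 stretch is chr2:34772020-34772049 (plus strand) with an ERSE. The Creld2 stretch is the 150 bases before its start, chr15:88819496-88819645 (plus strand), with an ERSE on the opposite strand. The Atf3 stretch is chr1:191183425-191183454 (minus strand) with a CARE on the opposite strand. The Asns stretch is chr6:7693213-7693242 (minus strand) with a CARE. Starts are those of RefSeq, and GENCODE has longer transcripts: of the 150 bases before the start, 120 in Hspa5, 45 in Asns, 7 in Atf3 and 0 in Creld2 lie in an annotated exon, and the Hspa5, Atf3 and Asns stretches lie inside the annotated gene.
Hspa5: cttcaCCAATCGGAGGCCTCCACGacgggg
Creld2: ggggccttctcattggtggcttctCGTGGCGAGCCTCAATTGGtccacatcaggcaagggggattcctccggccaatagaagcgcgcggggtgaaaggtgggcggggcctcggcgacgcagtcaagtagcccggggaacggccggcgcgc
Atf3: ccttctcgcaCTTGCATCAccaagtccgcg
Asns: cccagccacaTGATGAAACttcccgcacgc

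In windows of 300 bases around the start (250 before, 50 after), ERSE was present in 8 of 26 chaperone genes with a window (Calr, Canx, Creld2, Dnajc3, Ero1b, Hsp90b1, Hspa5 and Pdia6), in 2 of 20 ER degradation genes (Derl3 and Syvn1) and in 0 of 16 targets of ATF4 and CHOP. It was present in 37 of all 27025 genes with a window (0.137%). CARE was present in 6 of 16 targets of ATF4 and CHOP, in 10 of 23 amino acid genes, Asns among them, and in 2 of 26 chaperone genes, against 4.5% of all genes with a window. CARE is a short motif and matches by letters alone. The windows of Ppp1r15a, Gadd45a, Ddit3, Atf4 and Xbp1 held neither these letters nor those of UPRE (TGACGTGG, 0.714% of genes), a further element bound by XBP1.

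ER chaperones and folding enzymes overlapped between the lines under CPA for 17 of 30 genes, and 1 of 30 passed the test. Over all genes 60.1% did not overlap and 10.2% passed. Hspa5, which encodes BiP, the chief chaperone of the ER and the usual gauge of ER stress, was at 3165 and 3610 CPM in NIP with CPA, against 3169 and 4482 CPM in NIL with CPA. Untreated, it was at 355 and 369 CPM in NIP and at 351 and 493 CPM in NIL. The agent thus went with a log2 difference in mean level of 3.22 in NIP and 3.18 in NIL (log2 of CPM + 0.5). The lines overlapped, and the difference between them with CPA was -0.17 ± 0.27 (95% interval -0.75 to 0.40, adjusted p = 0.747). A difference beyond 1 log2 unit in either direction lies outside that interval. Without NIL replicate 2, the library with the most endoderm marker RNA, the Hspa5 difference was 0.098 (adjusted p = 0.949).

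Hsp90b1, which encodes the ER chaperone GRP94, repeated this layout with 2551 and 2727 CPM in NIP against 2690 and 4634 CPM in NIL (difference -0.47 ± 0.32, adjusted p = 0.402). Hyou1, an exchange factor of BiP, was at 1382 and 1196 CPM in NIP against 1182 and 1503 CPM in NIL (difference -0.06 ± 0.25, adjusted p = 0.923). Sdf2l1, a cofactor of BiP, was at 222 and 233 CPM in NIP against 179 and 178 CPM in NIL (difference 0.35 ± 0.29, adjusted p = 0.516). NIL replicate 2 was the highest library for Hspa5, Hsp90b1 and Hyou1, while Sdf2l1 was above in both NIP libraries without passing the test.

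Of the 30 listed chaperones, all tested, 1 was higher and 0 were lower in NIP with CPA, beside 6.77% and 3.39% of all genes. With the block 1 was higher and 3 were lower, beside 14.2% and 12.5% of all genes. Their median difference was -0.07, beside 0.04 over all genes, and 19 of the 30 had 95% intervals within 1 log2 unit of 0. In 17 genes the lines overlapped, in 6 both NIP libraries were above and in 7 both were below. Over all genes 33.3% lay above and 26.8% below. The median was 0.11 within replicate number 1 and -0.25 within replicate number 2. The summed level was 16000 and 16300 CPM in NIP and 15800 and 22200 CPM in NIL with CPA, against 3770 and 3750 CPM in NIP and 3480 and 4990 CPM in NIL untreated. The median log2 difference between CPA and untreated was 1.55 over these genes in NIP and 1.38 in NIL.

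Creld1, a disulfide isomerase of the ER membrane, was the chaperone that passed. It was at 81.4 and 83.4 CPM in NIP and 53.0 and 44.5 CPM in NIL with CPA, 0.76 ± 0.16 higher (adjusted p = 0.00696). Without CPA it was at 42.6 and 48.1 CPM in NIP and 25.2 and 24.7 CPM in NIL, also apart. It missed the threshold without NIL replicate 2 (adjusted p = 0.0962) and without NIP replicate 1, and with library totals as the only scaling (0.362). Its relative Creld2, an ER stress gene, lay the other way at 98.2 and 209 CPM in NIP, against 255 and 504 CPM in NIL. Both NIP libraries were below both NIL libraries, and the difference of -1.30 ± 0.44 passed with the block (adjusted p = 0.00133) and not without it (0.081). Pdia4, a protein disulfide isomerase, also passed only with the block (515 and 679 CPM in NIP, 721 and 1241 CPM in NIL, difference -0.72 ± 0.28, adjusted p = 0.14 and 0.0264 with the block), as did Txndc12, an ER thioredoxin (44.1 and 55.0 CPM in NIP, 61.4 and 84.1 CPM in NIL, difference -0.55 ± 0.47, adjusted p = 0.521 and 0.0442 with the block). The highest library for these 3 genes was NIL replicate 2.

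**Figure D3:**
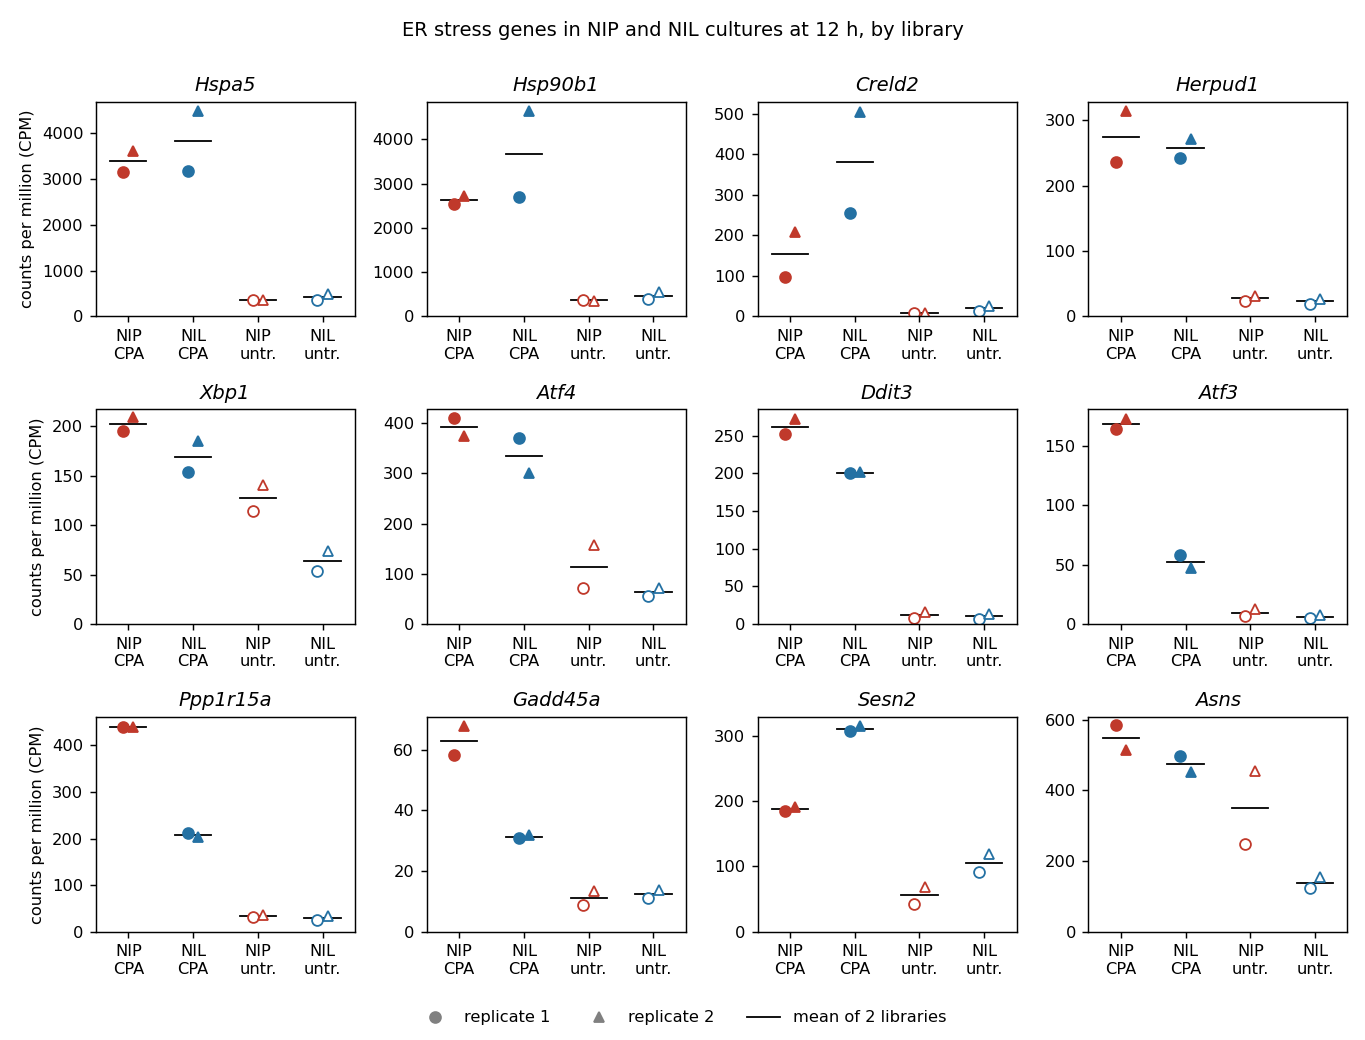
CPM of 12 ER stress genes in each 12 h library, with NIP in red, NIL in blue, CPA filled and untreated open, circles for replicate 1, triangles for replicate 2 and a line at the mean of both. Hspa5, Hsp90b1 and Herpud1 overlap between lines with CPA, with NIL replicate 2 highest for Hspa5 and Hsp90b1. Atf4 lies above in NIP with CPA and did not pass. Atf3, Ppp1r15a and Gadd45a are higher in NIP with CPA, and Sesn2 and Creld2 lie below in NIP and passed only with the block.

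Among sensors and transcription factors of the UPR, both NIP libraries lay above both NIL libraries for 11 of 15 genes and below for 1 (Creb3l1), and 3 overlapped, a split that across all genes was 33.3% above and 26.8% below. Of the 15, 2 passed, both higher in NIP, beside 6.77% of all genes, and the median was 0.26. With the block 4 were higher and 1 lower, beside 14.2% and 12.5%. Untreated, 3 were higher and the median was 0.40. Their summed level was 2570 and 2540 CPM in NIP and 2030 and 2050 CPM in NIL with CPA, so the lines did not overlap. The untreated sums, 984 and 1250 CPM in NIP and 701 and 798 CPM in NIL, did not overlap either.

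Atf3, a factor of the ATF4 arm that is also switched on in injured neurons, had the largest difference of those that passed. It was at 164 and 172 CPM in NIP with CPA, against 58.0 and 47.5 CPM in NIL with CPA. Untreated it was at 7.16 and 12.4 CPM in NIP and at 4.86 and 7.43 CPM in NIL. Atf3 was therefore low in each untreated culture, and both NIP libraries stood far above both NIL libraries with CPA. The difference with CPA was 1.67 ± 0.33 (95% interval 0.96 to 2.39, adjusted p = 0.00527), and untreated it was 0.70 ± 0.35 (adjusted p = 0.229). The change of the difference, 0.97 ± 0.47, did not pass (adjusted p = 1, and 0.719 with the block). Atf3 lies on chromosome 1 at 191170296 to 191218039 (minus strand). Without NIL replicate 2 the difference was 1.54 with an adjusted p of 0.0688, and it passed without each other CPA library.

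Nfe2l1, a factor that raises proteasome genes, was at 655 and 566 CPM in NIP and 443 and 403 CPM in NIL, 0.53 ± 0.16 higher (adjusted p = 0.0498). It was just under the threshold and missed it without any 1 of the 4 CPA libraries (adjusted p up to 0.395, without NIP replicate 1). Ern1 was at 34.5 and 32.1 CPM in NIP and 21.4 and 21.8 CPM in NIL (difference 0.62 ± 0.23, adjusted p = 0.119, and 0.0363 with the block). Atf6b, a relative of ATF6, was at 65.5 and 65.3 CPM in NIP and 47.7 and 46.5 CPM in NIL (difference 0.47 ± 0.19, adjusted p = 0.146, and 0.0379 with the block). Both genes had NIP above NIL in every library. Creb3l1, a transmembrane factor of secretory and matrix-forming cells, was at 9.45 and 18.3 CPM in NIP and 34.3 and 72.7 CPM in NIL (difference -1.94 ± 0.74, adjusted p = 0.125, and 9.62e-06 with the block). Its libraries had the same order as the endoderm marker sums, and the cause of this order was not tested.

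The central factors of both arms did not pass. Atf4 was at 409 and 374 CPM in NIP and 370.5 and 299.8 CPM in NIL (difference 0.23 ± 0.28, adjusted p = 0.683). Ddit3, which encodes CHOP, was at 252 and 271 CPM in NIP with CPA and 200 and 202 CPM in NIL with CPA, against 8.31 and 16.7 CPM in NIP and 6.90 and 13.9 CPM in NIL untreated. Both NIP libraries were above both NIL libraries with CPA, yet the difference of 0.38 ± 0.42 had a 95% interval of -0.52 to 1.28 (adjusted p = 0.635). Ddit3 is annotated under 2 gene identifiers on chromosome 10, and how reads were shared between them is not given in the sources used here. Xbp1 was at 196 and 209 CPM in NIP and 154 and 185 CPM in NIL with CPA (0.26 ± 0.21, adjusted p = 0.497). Untreated, Xbp1 was at 114 and 140 CPM in NIP and 53.4 and 73.6 CPM in NIL (difference 1.01 ± 0.21, adjusted p = 0.00629). The change of the Xbp1 difference was -0.75 ± 0.29 and did not pass (adjusted p = 1, and 0.335 with the block). Gene counts do not tell spliced from unspliced Xbp1 mRNA. Eif2ak3 was at 141 and 145 CPM in NIP and 129 and 122 CPM in NIL (difference 0.19 ± 0.20, adjusted p = 0.62), and Atf6 at 164 and 156 CPM in NIP and 123 and 143 CPM in NIL (difference 0.26 ± 0.16, adjusted p = 0.357).

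Of 20 listed targets of ATF4 and CHOP, 18 were tested (Fgf21 and Rhoh had too few counts). Of these 2 were higher in NIP (11.1%, beside 6.77% of all genes) and 0 lower (beside 3.39%). With the block 3 were higher and 4 lower, beside 14.2% and 12.5%. The median was -0.12, with 5 genes above in NIP (27.8%), 5 below (27.8%) and 8 overlapping, beside 33.3% above and 26.8% below over all genes. The summed level was 1970 and 2040 CPM in NIP and 1980 and 1950 CPM in NIL with CPA, so the sums overlapped.

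Ppp1r15a, the phosphatase subunit that restores translation, was at 439.8 and 439 CPM in NIP with CPA, against 212 and 204 CPM in NIL with CPA. Untreated it was at 31.6 and 36.2 CPM in NIP and 25.9 and 33.1 CPM in NIL. The lines overlapped untreated and stood apart with CPA. The difference with CPA was 1.08 ± 0.31 (95% interval 0.42 to 1.74, adjusted p = 0.0402), and untreated 0.21 ± 0.31 (adjusted p = 0.738). Its change of 0.87 ± 0.43 did not pass (adjusted p = 1, and 0.695 with the block). The gene lies on chromosome 7 at 45522916 to 45526268 (minus strand). It missed the threshold when any 1 of the 4 CPA libraries was left out (adjusted p up to 0.204, without NIL replicate 2) and with library totals as the only scaling (0.125), while the difference stayed between 1.06 and 1.12 without any 1 library.

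Gadd45a, a growth arrest and DNA damage gene, was at 58.2 and 67.8 CPM in NIP with CPA, against 30.9 and 31.8 CPM in NIL with CPA. Untreated it was at 8.90 and 13.5 CPM in NIP and 11.1 and 13.9 CPM in NIL, with overlap. It was 1.01 ± 0.23 higher in NIP with CPA (adjusted p = 0.0119) and -0.15 ± 0.23 untreated (adjusted p = 0.741). The change of 1.16 ± 0.33 did not pass (adjusted p = 1, and 0.144 with the block). The gene passed without NIP replicate 1 (adjusted p = 0.0496) and not without each of the others (up to 0.0864, without NIP replicate 2).

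Of this list 4 genes were lower in NIP with the block and passed only there. Sesn2, a brake on mTORC1 growth signalling, was at 185 and 191 CPM in NIP with CPA, against 306 and 315 CPM in NIL with CPA (-0.72 ± 0.32, adjusted p = 0.18, and 0.00638 with the block). Untreated it was at 43.2 and 68.9 CPM in NIP and 91.8 and 119 CPM in NIL. Sesn2 was thus below in NIP in both settings. Vldlr, a lipoprotein and reelin receptor, was at 256 and 210.4 CPM in NIP and 547 and 398 CPM in NIL (difference -1.02 ± 0.46, adjusted p = 0.189, and 0.0294 with the block). Tnfrsf10b, a death receptor and CHOP target, was at 19.6 and 33.7 CPM in NIP and 34.4 and 68.2 CPM in NIL (difference -0.94 ± 0.61, adjusted p = 0.385, and 0.00185 with the block). Nupr1, a stress-induced nuclear protein whose libraries overlapped between lines, was at 0.960 and 3.57 CPM in NIP and 2.60 and 8.64 CPM in NIL (difference -1.29 ± 1.12, adjusted p = 0.533, and 0.0242 with the block). On the other side Cdkn1a, the cell cycle inhibitor p21, was at 326 and 330.4 CPM in NIP and 179.5 and 191 CPM in NIL (difference 0.83 ± 0.28, adjusted p = 0.0861, and 0.00134 with the block).

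Trib3, a pseudokinase that restrains ATF4, was at 56.3 and 67.8 CPM in NIP and 70.1 and 82.3 CPM in NIL (difference -0.30 ± 0.65, adjusted p = 0.83). Chac1, which degrades glutathione, was at 93.5 and 97.9 CPM in NIP and 74.2 and 71.1 CPM in NIL (difference 0.40 ± 0.69, adjusted p = 0.78). Their untreated levels were 2.00 and 9.24 CPM in NIP and 1.29 and 3.48 CPM in NIL for Trib3, and 1.94 and 17.8 CPM in NIP and 1.16 and 3.13 CPM in NIL for Chac1. Both genes were many times above their untreated level in each line, and their difference between lines did not pass. Stc2, a secreted glycoprotein, was at 47.9 and 38.4 CPM in NIP and 22.2 and 14.1 CPM in NIL (difference 1.25 ± 0.56, adjusted p = 0.194). Gdf15, a stress-induced cytokine, stayed under 1 CPM in each of the 8 libraries at 12 h.

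**Figure D4:**
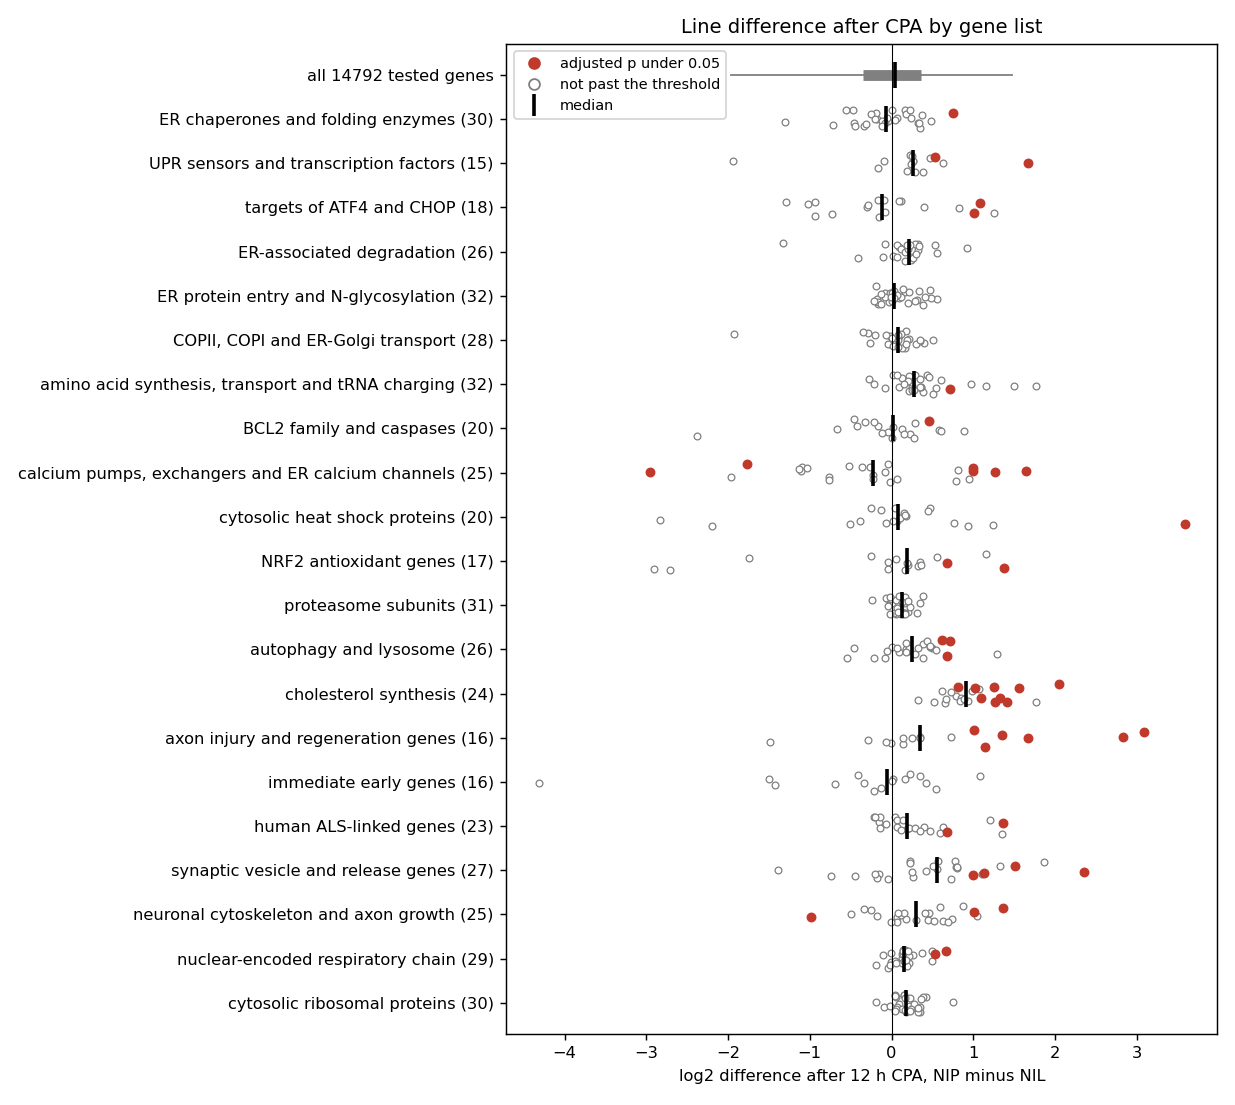
Log2 difference NIP minus NIL after 12 h CPA for the genes of 21 lists, red where the adjusted p was under 0.05 and open otherwise, with the median as a black bar; the top line gives all 14792 genes (thick bar for the middle 50%, thin line for the 5th to 95th percentile). The lists of chaperones and of degradation, entry and transport genes have medians between -0.07 and 0.22, with 1 red point among them. Their widest member is Kdelr3, a transport gene, at -1.93. Cholesterol genes lie to the right with a median of 0.91.

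Genes of ER-associated degradation (ERAD), which send misfolded protein to the proteasome, had 0 of 26 members past the threshold. With the block 3 were higher in NIP, beside 14.2% of all genes. The median was 0.22, and NIP was above NIL without overlap in 15 of the 26 and below in 2. Over all genes 33.3% lay above and 26.8% below. The widest difference of the list was on the lower side, Derl3 at -1.32, which passed by neither fit. Herpud1, a scaffold of the ERAD complex, was at 236 and 313 CPM in NIP and 242 and 272 CPM in NIL, against 23.5 and 32.0 CPM in NIP and 19.3 and 26.5 CPM in NIL untreated (0.10 ± 0.28 with CPA, adjusted p = 0.881). Ube2j1, an ubiquitin conjugating enzyme at the ER membrane, was at 181 and 142 CPM in NIP and 90.9 and 79.6 CPM in NIL (difference 0.92 ± 0.32, adjusted p = 0.0864, and 0.00042 with the block). Ube2g2, another such enzyme, was at 121 and 105 CPM in NIP and 88.6 and 66.7 CPM in NIL (difference 0.54 ± 0.17, adjusted p = 0.063, and 0.0113 with the block). Os9, a lectin that selects ERAD clients, was at 352 and 278 CPM in NIP and 252 and 177 CPM in NIL (difference 0.55 ± 0.29, adjusted p = 0.262, and 0.0262 with the block). These 3 had every NIP library above every NIL library.

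Protein entry and N-glycosylation genes had 0 of 32 past the threshold (median 0.03, 1 higher with the block). Transport genes of COPII and COPI coats had 0 of 28 (median 0.08, 1 higher and 1 lower with the block). Over all genes 10.2% passed, and with the block 14.2% were higher and 12.5% lower. The 95% interval lay within 1 log2 unit of 0 for 28 of the 32 and 27 of the 28. The widest difference of the transport list was on the lower side, Kdelr3 at -1.93, named after its values were seen. Srp72, a subunit of the signal recognition particle, had the smallest p of the entry genes, at 322 and 270.5 CPM in NIP and 213 and 215 CPM in NIL (difference 0.47 ± 0.17, adjusted p = 0.108, and 0.0288 with the block).

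Amino acid synthesis, transport and tRNA charging genes passed in 1 case of 32 with CPA and in 15 without it. With CPA 1 of 32 was higher in NIP (3 with the block), beside 6.77% of all genes (14.2% with the block), and the median was 0.28. Untreated 15 of 32 were higher (20 with the block), beside 7.68% of all genes (14.5% with the block), and the median was 0.86. The summed level was 9920 and 8500 CPM in NIP and 7870 and 7230 CPM in NIL with CPA, against 3460 and 5350 CPM in NIP and 2350 and 2510 CPM in NIL untreated. The difference was smaller with CPA in 29 of the 32 genes, and the median change of the difference was -0.51. That change was positive in 3 of the 32, beside 8000 of all 14792 genes, where its median was 0.03. The median log2 difference between CPA and untreated was 1.23 in NIP and 1.58 in NIL. For none of the 32 did the change of the difference pass, by either fit.

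Slc7a5, the light chain of the large neutral amino acid transporter, was at 816 and 700 CPM in NIP and 654 and 592 CPM in NIL with CPA. Untreated it was at 204 and 456 CPM in NIP and 74.8 and 96.5 CPM in NIL. The gap between lines was wide untreated and narrow with CPA, with NIP above in both. The differences were 0.28 ± 0.30 with CPA (adjusted p = 0.628) and 1.95 ± 0.32 untreated (adjusted p = 0.00106), and their change was -1.67 ± 0.43 (adjusted p = 1, and 0.166 with the block). Asns, asparagine synthetase, had the same layout, at 584 and 514 CPM in NIP and 497 and 452 CPM in NIL with CPA, and at 247 and 454 CPM in NIP and 125 and 154 CPM in NIL untreated. Its differences were 0.21 ± 0.25 with CPA (adjusted p = 0.664) and 1.33 ± 0.25 untreated (adjusted p = 0.00347), with a change of -1.12 ± 0.35 (adjusted p = 1). Slc7a11, the cystine transporter, was at 32.1 and 13.2 CPM in NIP and 14.1 and 6.16 CPM in NIL with CPA and under 1 CPM in each untreated library of these lines (adjusted p = 0.506 with CPA).

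Got1, the cytosolic aspartate transaminase, was the member that passed with CPA. It was at 178 and 133 CPM in NIP and 96.8 and 92.8 CPM in NIL (difference 0.71 ± 0.17, adjusted p = 0.0144), and at 77.1 and 94.9 CPM in NIP and 44.7 and 50.4 CPM in NIL untreated. It stood apart between lines in both settings. Got1 passed without NIP replicate 2 and not without NIP replicate 1 (adjusted p = 0.272), NIL replicate 1 or NIL replicate 2.

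**Figure D5:**
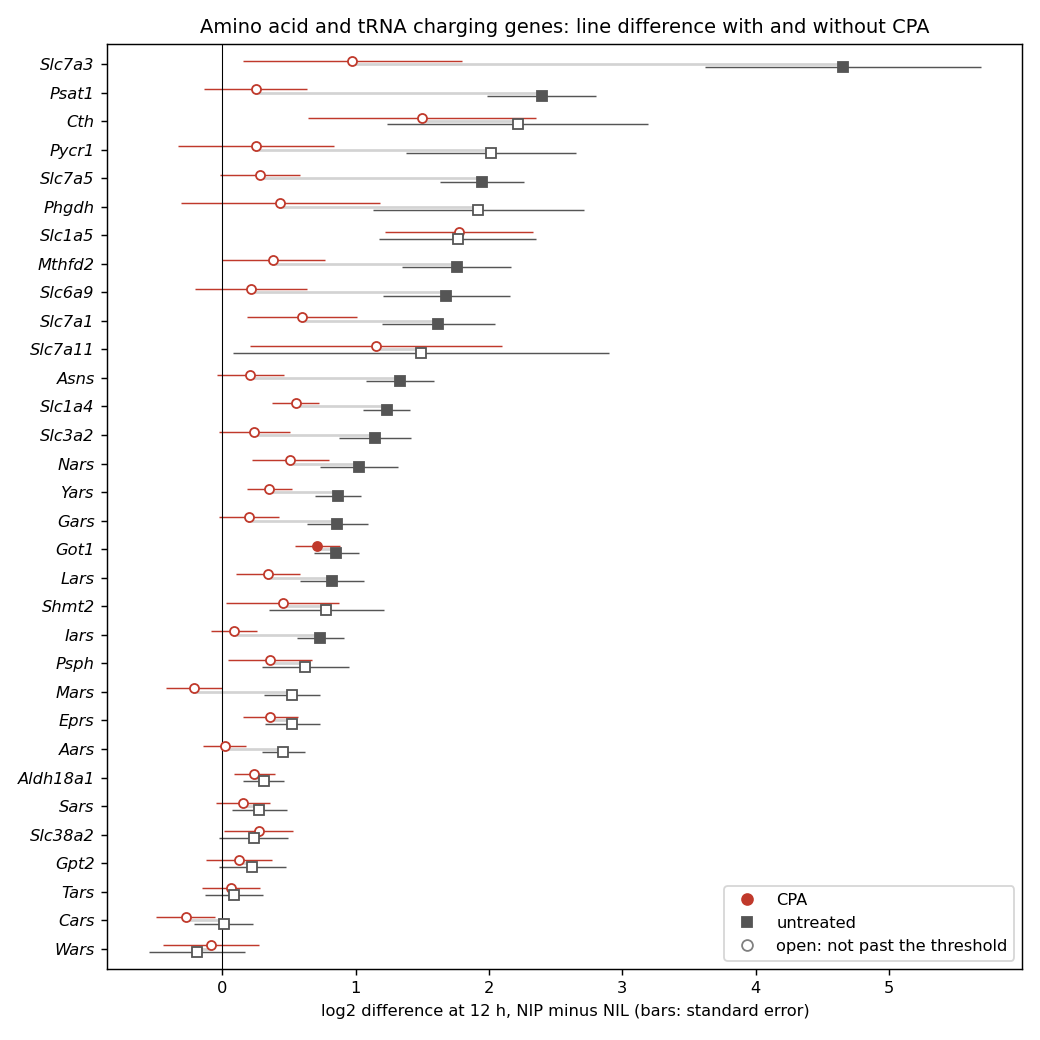
Log2 difference NIP minus NIL of the 32 amino acid and tRNA charging genes at 12 h, red circles with CPA and grey squares untreated, filled where the adjusted p was under 0.05, with standard errors as bars and genes in order of the untreated difference. The squares lie right of the circles in 29 genes, and 15 squares and 1 circle are filled.

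BCL2 family and caspase genes showed 1 of 20 past the threshold, higher in NIP, beside 6.77% of all genes. Bcl2l2, which encodes the survival protein BCL-W, was at 70.1 and 69.1 CPM in NIP and 54.3 and 46.7 CPM in NIL (difference 0.46 ± 0.14, adjusted p = 0.0445), and missed the threshold without any 1 of the 4 CPA libraries (up to 0.334, without NIL replicate 2). The death-promoting genes did not pass. Bbc3, which encodes PUMA, was at 54.5 and 83.9 CPM in NIP and 73.8 and 80.9 CPM in NIL (difference -0.16 ± 0.41, adjusted p = 0.86). Hrk was at 82.1 and 106 CPM in NIP and 144 and 109 CPM in NIL (difference -0.42 ± 0.27, adjusted p = 0.365). With the block 2 of the 20 were higher and 2 lower, beside 14.2% and 12.5% of all genes.

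Calcium handling genes differed in both directions, 4 higher and 2 lower of 25, beside 6.77% and 3.39% of all genes. With the block 6 were higher and 6 lower, beside 14.2% and 12.5%, and the median was -0.23. Atp2a2, which encodes SERCA2, a target of the agent, was at 896 and 784 CPM in NIP and 885 and 1081 CPM in NIL (difference -0.23 ± 0.25, adjusted p = 0.645). Tmbim6, an ER membrane protein that limits calcium release and cell death, was at 503 and 523 CPM in NIP and 249 and 265 CPM in NIL with CPA, and at 187 and 242 CPM in NIP and 152 and 200 CPM in NIL untreated. With CPA the libraries of the lines were apart, and untreated they overlapped. The difference with CPA was 1.00 ± 0.21 (adjusted p = 0.00699), and 0.0619 was the adjusted p without NIL replicate 1 and 0.156 that with library totals as the only scaling.

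The plasma membrane calcium exporters Atp2b4, a pump (9.31 and 9.82 CPM in NIP, 2.43 and 3.73 CPM in NIL), and Slc8a2, a sodium-calcium exchanger (31.4 and 31.7 CPM in NIP, 16.1 and 15.6 CPM in NIL), were higher in NIP with CPA by 1.64 ± 0.27 and 0.99 ± 0.17 (adjusted p = 0.00138 and 0.00251). Untreated they were at 19.9 and 26.1 CPM in NIP and 3.40 and 2.32 CPM in NIL, and at 80.3 and 84.0 CPM in NIP and 28.7 and 31.5 CPM in NIL. Stim2, a sensor of ER calcium that opens store-operated entry, was at 80.1 and 64.7 CPM in NIP and 34.5 and 25.6 CPM in NIL (difference 1.27 ± 0.36, adjusted p = 0.0377). It did not pass without any 1 of the 4 CPA libraries (up to 0.273, without NIL replicate 2). The ER calcium release channels Ryr2 (7.72 and 10.6 CPM in NIP, 30.1 and 32.2 CPM in NIL) and Ryr3 (1.77 and 4.20 CPM in NIP, 23.5 and 22.9 CPM in NIL) were lower in NIP by -1.76 ± 0.31 and -2.95 ± 0.61 (adjusted p = 0.00221 and 0.0068). Ryr3 had an adjusted p of 0.0964 without NIP replicate 1, and Atp2b4, Slc8a2 and Ryr2 passed without any 1 library. With library totals as the only scaling Slc8a2 did not pass (0.83, adjusted p = 0.179).

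Of 16 axon injury and regeneration genes, 6 were higher in NIP (37.5%, beside 6.77% of all genes) and 0 lower (7 and 1 with the block, beside 14.2% and 12.5%). The median was 0.35, and untreated 3 were higher and 2 lower. With 1 CPA library left out the count with CPA was between 2 and 4 (2 without NIL replicate 1, 3 without NIL replicate 2), and it was 3 with library totals as the only scaling. Atf3 and Gadd45a, described above, belong to this list too. Arid5a, an RNA-binding factor that stabilises cytokine mRNAs, was at 85.5 and 89.3 CPM in NIP and 44.5 and 34.6 CPM in NIL with CPA, and at 36.3 and 36.8 CPM in NIP and 18.1 and 15.0 CPM in NIL untreated. It was higher in NIP by 1.14 ± 0.15 with CPA (adjusted p = 0.000225) and passed without any 1 library, though not with library totals as the only scaling (0.073). Gal, the neuropeptide galanin, was low throughout, at 2.40 and 1.26 CPM in NIP and 0.126 and 0.311 CPM in NIL (difference 3.09 ± 0.57, adjusted p = 0.00355, and 0.0605 without NIL replicate 1). The remaining members of the 6, named after their values were seen, were Sprr1a, a regeneration-associated gene (3.17 and 2.94 CPM in NIP, 0.252 and 0.622 CPM in NIL), and Lifr, the receptor of leukemia inhibitory factor (590.2 and 386 CPM in NIP, 139 and 244 CPM in NIL). Sprr1a was at 0.197 and 0.0464 CPM in NIP and 0.170 and 0.581 CPM in NIL untreated, and Lifr at 759 and 593 CPM in NIP and 203 and 189 CPM in NIL.

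Beside 6.77% of all genes, the share of members higher in NIP was 11.8% for antioxidant genes of NRF2, 11.5% for autophagy and lysosome genes and 5% for cytosolic heat shock genes. Proteasome subunits had 0 of 31 past the threshold (median 0.13, all 31 intervals within 1 log2 unit of 0), and immediate early genes 0 of 16. Of 20 cytosolic heat shock genes 1 was higher. This was Hspb8, a small heat shock protein that works with BAG3 in selective autophagy, at 28.6 and 24.0 CPM in NIP and 2.06 and 2.301 CPM in NIL (difference 3.59 ± 0.43, adjusted p = 0.000151). Untreated, Hspb8 was at 39.3 and 39.0 CPM in NIP and 2.45 and 7.08 CPM in NIL, so the lines were apart there too. Of 17 antioxidant genes of NRF2, 2 were higher, Srxn1 (61.5 and 45.7 CPM in NIP, 22.7 and 18.6 CPM in NIL, difference 1.37 ± 0.22, adjusted p = 0.00139) and Sqstm1. Sqstm1, the autophagy receptor p62, was at 462 and 452 CPM in NIP and 294 and 276 CPM in NIL (difference 0.68 ± 0.13, adjusted p = 0.00455, and 0.0579 without NIL replicate 2). With Map1lc3b (249 and 251 CPM in NIP, 169 and 135 CPM in NIL) and Atg9a (84.2 and 76.0 CPM in NIP, 51.9 and 52.9 CPM in NIL) it made up the 3 of 26 autophagy and lysosome genes that were higher. With the block 9 were higher and 1 lower, beside 14.2% and 12.5% of all genes. Map1lc3b and Atg9a missed the threshold in 3 and 4 of the 4 fits without 1 library (adjusted p up to 0.172, without NIL replicate 2, and up to 0.218, without NIP replicate 1).

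Cholesterol synthesis genes were higher in NIP with CPA, 9 of 24 and 21 with the block, beside 6.77% and 14.2% of all genes. The median was 0.91, with 24 of 24 positive. Untreated, 8 of 24 were higher (23 with the block), beside 7.68% of all genes (14.5% with the block), with a median of 1.01. Tm7sf2, a sterol reductase, was at 141 and 130 CPM in NIP and 49.9 and 41.6 CPM in NIL (difference 1.56 ± 0.20, adjusted p = 0.000242). Mvk, mevalonate kinase, was at 57.0 and 31.0 CPM in NIP and 19.1 and 13.9 CPM in NIL (difference 1.41 ± 0.25, adjusted p = 0.00273). Both passed without any 1 library. The list count was between 2 and 13 with 1 library left out. The summed level was 6290 and 3370 CPM in NIP and 2980 and 2120 CPM in NIL with CPA, with NIP replicate 1 highest.

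Genes of motor neuron type were among the widest differences of the comparison. Mnx1, a spinal motor neuron homeobox gene, was at 0.192 and 0.336 CPM in NIP and 61.4 and 56.0 CPM in NIL (difference -7.74 ± 0.40, adjusted p = 2.41e-07). Isl2 and Lhx4, further spinal factors, were lower in NIP by -4.75 ± 0.39 and -4.76 ± 0.55. Phox2a was higher in NIP by 8.56 ± 1.32 (adjusted p = 0.000933). Rgs4, a regulator of G protein signalling, was at 233 and 222 CPM in NIP and 2.27 and 2.24 CPM in NIL (difference 6.65 ± 0.63), and Tlx2, a homeobox gene of autonomic neurons, was higher by 6.88 ± 0.93. Of 9 tested spinal factors 4 were lower in NIP and 1, Nkx6-1 (78.9 and 66.2 CPM in NIP, 8.31 and 5.04 CPM in NIL), was higher. Of 10 tested cranial factors 4 were higher and 2, Gata3 and Tbx3, were lower. Over all genes 6.77% were higher and 3.39% lower. Tbx3 (adjusted p = 0.0356) did not pass without any 1 of the 4 CPA libraries (up to 0.226).

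Genes shared by motor neurons divided as well, 3 higher and 3 lower of 18, beside 6.77% and 3.39% of all genes. With the block 7 were higher and 4 lower, beside 14.2% and 12.5%. Prph, the intermediate filament peripherin, was at 483 and 594 CPM in NIP and 38.6 and 36.6 CPM in NIL (difference 3.84 ± 0.22, adjusted p = 5.36e-07). Slit2, an axon guidance ligand, was at 40.0 and 26.3 CPM in NIP and 354 and 237 CPM in NIL (difference -3.16 ± 0.56, adjusted p = 0.00265). Isl1, part of both factor sets, was at 158 and 157 CPM in NIP and 151 and 109 CPM in NIL (difference 0.28 ± 0.35, adjusted p = 0.687). Neurog2, also in both sets, was at 108 and 160 CPM in NIP and 91.1 and 88.7 CPM in NIL (difference 0.58 ± 0.22, adjusted p = 0.121, and 0.0451 with the block). Chat, which makes acetylcholine, was at 5.76 and 6.42 CPM in NIP and 24.1 and 11.8 CPM in NIL (difference -1.56 ± 0.49, adjusted p = 0.0593, and 0.00266 with the block).

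Synaptic vesicle and release genes had 4 of 27 higher in NIP and 0 lower, beside 6.77% and 3.39% of all genes. With the block 14 were higher and 2 lower, beside 14.2% and 12.5%, and the median was 0.56. Vamp1, a vesicle SNARE, was at 22.02 and 22.9 CPM in NIP and 4.78 and 3.98 CPM in NIL (difference 2.35 ± 0.38, adjusted p = 0.00132), and Syn1, which tethers vesicles, at 201 and 228 CPM in NIP and 105 and 110 CPM in NIL (difference 0.99 ± 0.17, adjusted p = 0.00241). Both passed without any 1 library, and Syn1 did not pass with library totals as the only scaling (0.84, adjusted p = 0.196). Of 27 voltage-gated channel genes 6 were higher and 3 lower, beside the same 6.77% and 3.39%. Kcnq3, of the M current, was at 25.1 and 35.1 CPM in NIP and 3.61 and 3.23 CPM in NIL (difference 3.13 ± 0.30, adjusted p = 3e-05). Scn9a, a sodium channel, was at 408 and 359.8 CPM in NIP and 72.3 and 94.9 CPM in NIL (difference 2.20 ± 0.28, adjusted p = 0.000231). Cacna1g, a T-type calcium channel, was at 0.432 and 0.629 CPM in NIP and 33.4 and 30.1 CPM in NIL (difference -5.88 ± 0.47, adjusted p = 6.07e-06).

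Outside the lists, the widest differences by rule included Avpr1a, a vasopressin receptor with 0 counts in NIL and 455 in NIP (at least 135-fold higher in NIP), Hs3st2, a heparan sulfate sulfotransferase (35.1 and 19.4 CPM in NIP, 0.126 and 0.187 CPM in NIL), and Rasgrp1, a Ras activator (46.9 and 79.4 CPM in NIP, 0.252 and 0.933 CPM in NIL). On the lower side were Megf11, a cell adhesion protein (1.87 and 1.38 CPM in NIP, 325 and 214 CPM in NIL), and Rxrg, a retinoid receptor (0.432 and 1.55 CPM in NIP, 143 and 118 CPM in NIL). Each was on the same side without CPA, such as Megf11 at 2.73 and 2.00 CPM in NIP and 418 and 218 CPM in NIL.

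Of 82 named genes that passed with CPA, 44 passed with any 1 of the 4 CPA libraries left out. Among the stress genes these were Arid5a, Hspb8 and Srxn1, with the calcium genes Atp2b4, Slc8a2 and Ryr2. The other 38 did not pass with at least 1 library left out, and 12 of them with each of the 4 left out, including Ppp1r15a, Nfe2l1, Bcl2l2 and Stim2. With library totals as the only scaling 29 of the 82 did not pass, among them 3 of the 44 (Arid5a, Slc8a2 and Syn1).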

How the data were processed

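The authors deposited 1 table of raw counts for each library, whole numbers of reads for 24421 gene symbols. HTSeq 0.6.1p1, TopHat2 2.1.1, Bowtie2 2.3.2 and Picard on GRCm38 (mm10) are named in the submitters' processing notes. The strand setting and the annotation are not given in the sources used here, so overlapping genes on opposite strands cannot be told apart. In the 4 CPA libraries 21.6% to 28.0% of reads mapped to more than 1 place and were not counted, 11.7% to 13.9% lay outside genes and 0.35% to 0.386% were ambiguous. These lines were kept out of library sizes and tests.

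Counts of all 20 libraries (10 groups) were filtered with filterByExpr, which kept 14792 genes, scaled with TMM factors and fitted with edgeR 4.0.16 (R 4.3.3, limma 3.58.1; quasi-likelihood, robust, a mean per group, 10 residual degrees of freedom). The biological coefficient of variation was 27.5%. DESeq2 1.42.0 and other scalings, filters, sample sets and leaving out each library were alternatives. The script was tested on simulated counts.

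The replicate number, from the titles, was a block in an alternative fit (coefficient of variation 15.7%, 9 residual degrees of freedom). The difference between replicates 1 and 2 of a group, gene by gene, correlated between groups in all 45 pairs (r 0.29 to 0.818; 0.416 for the CPA pair), so the numbers pair libraries. No pair of replicates agreed within sampling noise (30.1 to 316 as chi-square over its degrees of freedom).

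Members, lists and tests were chosen with earlier results of these data known. Genes were named by rule: a stress and identity panel, the 10 largest differences in each direction that passed, had no overlap of libraries and reached 5 CPM in either group, up to 4 members of each list that passed in each direction (or 2 with the smallest p), and any member of the first 4 lists. The 32 lists come from textbook knowledge, and 1 listed gene, Sarf, had no matching symbol. Intervals of ratios are exact 95% intervals and cover counting error only. Positions of genes follow GENCODE on GRCm38. Promoters come from RefSeq. Atf6, Slc7a5, Tmbim6, Hyou1 and Manf had no window. Some genes that the rule names are not reported here.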

Additional observations from a re-analysis of the deposited data

How the results depend on the processing

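The number of genes that differed with CPA was 751 with library totals as the only scaling (416 higher in NIP), 3946 with the replicate block (2103 higher, 1843 lower), 3774 with the block in the 8 libraries at 12 h (1976 higher, 1798 lower), and 632 to 915 with 1 CPA library left out (448 to 653 higher, 181 to 286 lower), lowest without NIP replicate 1. DESeq2 called 798 lower. Of the calls 66.6% were higher in NIP, 53.3% with the block, 55.4% with library totals and 57.8% with upper quartile factors. Library totals moved the median of all genes to -0.12, beside 0.04, and shared 740 of the 1504 genes. Without the pair of libraries of other groups with over 30% Rn45s, an alternative chosen after seeing the data, 1282 differed. Untreated, the number was 1029 with library totals (620 higher, 409 lower), 826 in a fit of the groups compared alone (545 higher, 281 lower), 4133 with the block (2138 higher, 1995 lower), 3898 with the block at 12 h (1912 higher, 1986 lower) and 931 to 1131 with 1 library left out (640 to 682 higher, 252 to 459 lower). DESeq2 called 986 lower. For the change of the difference DESeq2 called 8 (3 higher, 5 lower), and 0 to 1 passed with 1 library left out (0 to 1 lower). Signs that turned belonged to genes that did not pass. With library totals the change of the Hspa5 difference was -0.012 and the Herpud1 difference with CPA -0.051. With 1 library left out Hspa5 ran from -0.392 to 0.098 with CPA, -0.457 to 0.019 untreated and -0.208 to 0.316 in its change. Likewise Herpud1 ran from -0.122 to 0.27 and Bbc3 from -0.504 to 0.102 with CPA. Ddit3 ran from -0.288 to 0.829 untreated and -0.462 to 0.67 in its change, and Gadd45a from -0.481 to 0.122 untreated. The causes were not tested. Where a library was left out, the lone sample of its group was assumed to vary like the other groups. With 2 libraries a group, the width of the 95% intervals limits which differences could be detected.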

Other observations

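The genes that came nearest to a changed line difference were few, and edgeR's quasi-likelihood test passed none of them after adjustment. DESeq2 called 8, named here for that reason. Rnd1, a small GTPase that lowers contractility, was at 11.9 and 10.9 CPM in NIP and 1.80 and 1.49 CPM in NIL with CPA, and at 0.756 and 0.836 CPM in NIP and 0.578 and 1.39 CPM in NIL untreated. Pde5a, a phosphodiesterase that breaks down cGMP, was at 33.4 and 29.8 CPM in NIP and 44.3 and 41.4 CPM in NIL with CPA, and at 8.05 and 9.43 CPM in NIP and 33.8 and 32.4 CPM in NIL untreated. Ednrb, an endothelin receptor, was at 11.9 and 5.16 CPM in NIP and 2.73 and 2.36 CPM in NIL with CPA, and at 0.460 and 0.883 CPM in NIP and 3.53 and 7.32 CPM in NIL untreated. Syt9, a synaptotagmin, was at 43.2 and 62.2 CPM in NIP and 19.1 and 21.7 CPM in NIL with CPA, and at 63.6 and 76.2 CPM in NIP and 9.48 and 9.75 CPM in NIL untreated. The others were Casz1, Fam196b, Lgr5 and Pde4dip.

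Among 23 human ALS-linked genes 2 were higher in NIP with CPA, the kinesin Kif5a (1804 and 1690.0 CPM in NIP, 773 and 587 CPM in NIL, a difference of 1.36 ± 0.34, adjusted p = 0.0203, and above 0.05 without any 1 CPA library, up to 0.186 without NIL replicate 2) and Sqstm1. This count of 2 of 23 stands beside 6.77% of all genes, and with the block 5 were higher, beside 14.2%. Respiratory chain genes had 2 of 29 higher, a share near the 6.77% of all genes. Cytosolic ribosomal proteins had 0 of 30 higher (1 with the block, beside 14.2% of all genes).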
